A study of Mus musculus with 7 samples.

Results

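Cpt1a, Acadm, Hadha, Acaa2, Ehhadh, Ppara, Pdk4 and Angptl4, genes of fatty acid oxidation and of its switch against glucose use, were followed over 7 microarrays of mouse intestine. They were chosen by name, and all 8 were measured, each by 1 probe set, among 19938 genes with a single symbol. The arrays came from ileum and colon of wild-type (WT) mice and of Atg4b knock-out (KO) mice. Atg4b encodes a protease that processes the LC3 proteins of the autophagosome. All mice were of strain C57Bl6/129Sv and aged 3 months. Control ileum and control colon gave 1 array of each genotype. Colon of mice given oral dextran sulfate sodium (DSS), which injures the colonic epithelium, for 7 days and then water for 3 days gave 1 WT array and 2 KO arrays. The labels do not say whether arrays are separate or pooled animals, so the p-values reflect the spread among arrays alone, which may be technical. Only KO DSS colon held a pair, as 5 of the 6 groups held 1 array. The rest of that spread is disagreement, real or not, of the genotype difference between conditions. The knock-out is described by its gene alone.

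Long-chain fatty acids enter the mitochondrion as carnitine esters. Fatty acids are shortened there in a repeated cycle of dehydrogenation, hydration, a second dehydrogenation and thiolysis. Peroxisomes run a similar cycle. Acetyl-CoA from the cycle feeds the citric acid cycle or is made into ketone bodies. The nuclear receptor PPAR-alpha, which binds fatty acids, switches on many of these genes, in the small intestine as in the liver. Colonocytes are known for burning butyrate made by bacteria. None of the 8 genes is itself an enzyme of ketone body synthesis.

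RefSeq promoter windows (GRCm38.p6) were matched for 6 of the 8 genes by symbol, and the 250 bases before the transcription start were searched on both strands. Those of the 4 genes below are shown because Ppara and Ehhadh had the most alike profiles of the set, Acadm had the clearest difference with DSS, and Acadm and Cpt1a hold the hexamer AGGTCA, which nuclear receptors such as PPAR-alpha bind in pairs. They lie at chr3:153944644-153944893 and chr16:21787835-21788084 on the minus strand, and at chr19:3323051-3323300 and chr15:85735526-85735775 on the plus strand. They are written 5′ to 3′ along the gene. Capitals mark AGGTCA, the GC box GGGCGG and the CCAAT box CCAAT on either strand.
Acadm: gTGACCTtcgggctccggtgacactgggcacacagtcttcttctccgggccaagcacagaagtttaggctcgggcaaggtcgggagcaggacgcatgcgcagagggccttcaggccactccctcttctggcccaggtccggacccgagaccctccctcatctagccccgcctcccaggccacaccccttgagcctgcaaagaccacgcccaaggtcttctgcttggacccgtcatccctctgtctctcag
Cpt1a: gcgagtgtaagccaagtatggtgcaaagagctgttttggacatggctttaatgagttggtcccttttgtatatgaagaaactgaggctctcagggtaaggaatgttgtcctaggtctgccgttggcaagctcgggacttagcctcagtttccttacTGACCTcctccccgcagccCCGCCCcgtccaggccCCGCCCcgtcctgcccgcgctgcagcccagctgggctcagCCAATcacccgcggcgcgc
Ppara: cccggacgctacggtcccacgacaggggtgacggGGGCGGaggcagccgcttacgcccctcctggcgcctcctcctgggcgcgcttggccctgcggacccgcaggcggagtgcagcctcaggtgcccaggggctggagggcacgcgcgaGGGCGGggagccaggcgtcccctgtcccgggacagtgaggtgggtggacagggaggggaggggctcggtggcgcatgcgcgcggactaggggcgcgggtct
Ehhadh: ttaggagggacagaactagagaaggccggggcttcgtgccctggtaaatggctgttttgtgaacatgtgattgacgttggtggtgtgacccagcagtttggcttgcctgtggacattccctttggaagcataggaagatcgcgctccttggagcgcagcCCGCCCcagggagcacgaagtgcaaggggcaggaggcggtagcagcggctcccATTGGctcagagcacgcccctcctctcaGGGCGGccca

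AGGTCA stood in 2 of the 6 windows, at positions -249 to -244 from the start of Acadm and -94 to -89 from that of Cpt1a. Both lie on the strand opposite to the one written above. It is present in 14.0% of all 32851 windows of this length. A direct repeat of AGGNCA with 1 base between the copies, the spacing used by PPAR-alpha with its partner RXR, was in none of the 6 and in 0.338% of all windows. GGGCGG was in 4 of 6 windows, those of Cpt1a, Ehhadh, Hadha and Ppara, against 32.7% of all. CCAAT was in 3 of 6, those of Cpt1a, Ehhadh and Pdk4, against 33.8%. The Ppara window was 76.4% G and C, that of Acadm 64.0%, that of Ehhadh 60.4% and that of Cpt1a 59.6%, against a median of 52.4% over all windows. These are letter matches, not measured sites, and the arrays hold no binding data.

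Several checks of the arrays bear on what follows. Atg4b had a log2 intensity of 7.35 to 7.72 on the 3 WT arrays and 5.39 to 5.45 on the 4 KO arrays. The ileal enterocyte genes Sis and Fabp6 stood at 12.30 to 13.23 in ileum and 4.52 to 5.39 in colon, and the epithelial gene Epcam at 11.96 to 12.27 on all arrays. KO DSS replicate 1 stood apart in other genes. Alpi, another ileal enterocyte marker, was at 8.83 there, against 6.11 to 6.48 on the other colon arrays. Fabp2 was at 10.68, against 7.59 to 8.42, and the epithelial gene Cdx2 at 10.56, against 9.28 to 9.74. Sis and Fabp6 did not show this, and its cause was not tested. Xist was at 12.16 to 12.55 on the 3 DSS arrays and 5.19 to 5.52 on the 4 controls, and the Y-linked Eif2s3y showed the opposite, against the labelled sex of the WT arrays. DSS and this sex pattern cannot be told apart in any gene. The mean log2 intensity of 12 smooth muscle markers was 11.14 in KO and 11.18 in WT control colon, 10.62 and 9.71 in the KO DSS arrays (replicates 1 and 2) and 9.13 in WT DSS colon. That of 10 adipocyte markers was 8.44 in WT control colon and 7.06 in KO control colon. In bulk tissue, fewer cells of a type and less RNA per cell cannot be told apart.

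Among the matrix enzymes, Acadm, the medium-chain acyl-CoA dehydrogenase, was lower in inflamed colon. Control colon held a log2 intensity of 11.05 in WT and 10.74 in KO, against 9.91 in WT DSS colon, and 10.03 and 10.08 in KO DSS colon. All 3 DSS arrays lay below both control colons, by 1.14 in WT and by 0.71 and 0.66 in KO. In the fit across all arrays Acadm fell by 0.91 ± 0.19 log2 units (SE, 3 DSS against 2 control colon arrays, adjusted p = 0.0308), the only 1 of the 8 genes past the threshold of 0.05. Over all 19938 genes, 10.6% passed in either direction, 7.2% on the higher and 3.43% on the lower side. Acadm still passed without KO DSS replicate 1 (-0.90, adjusted p = 0.0291). It no longer passed without WT control colon (-0.62, adjusted p = 0.153), KO control colon (-1.26, adjusted p = 0.0628), WT DSS colon (-0.90, adjusted p = 0.134) or KO DSS replicate 2 (-0.92, adjusted p = 0.0857). Ileum held 10.79 in WT and 11.36 in KO, on either side of WT control colon, and ileum minus control colon was 0.18 ± 0.20 (adjusted p = 0.654).

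**Figure D1:**
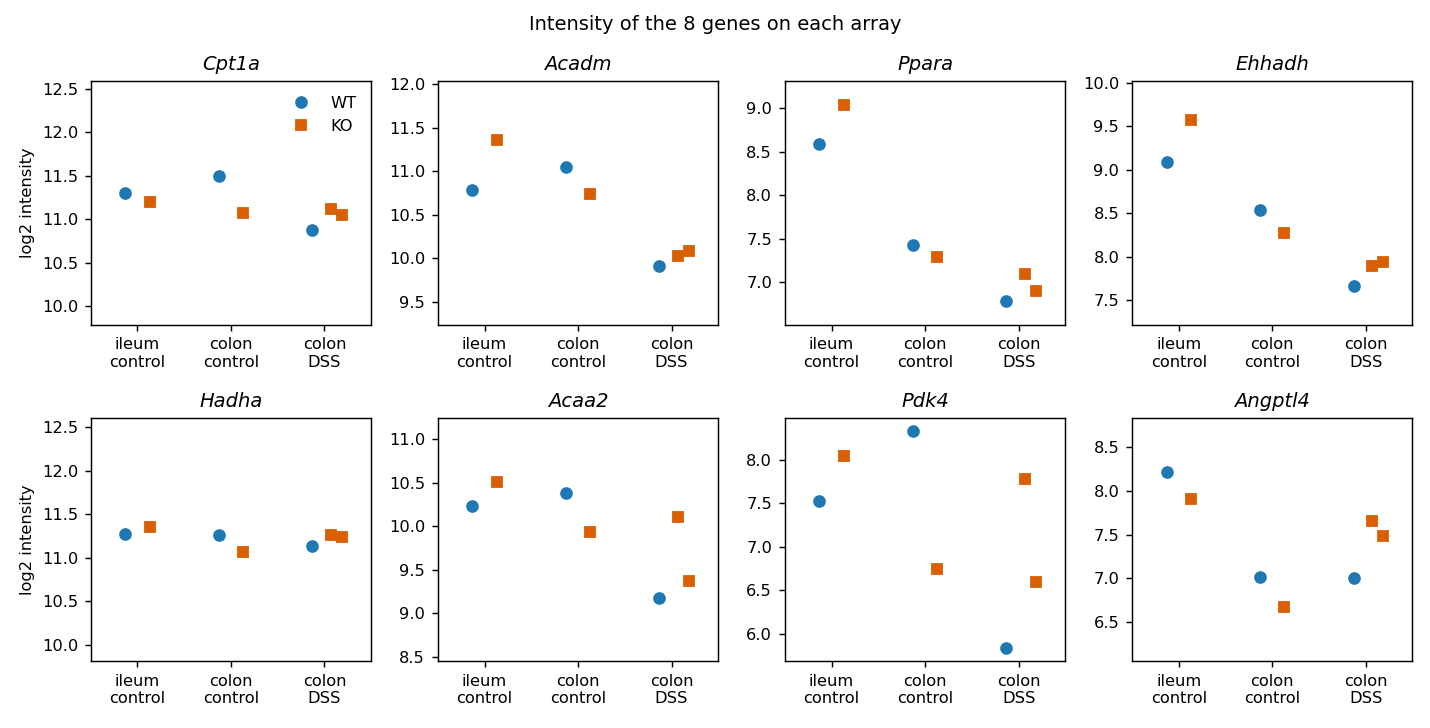
Log2 intensity (y axis) of each of the 8 genes on every array, with WT as circles and KO as squares, by tissue and treatment (x axis). Every panel spans the same range of log2 units, and each point is 1 array. Acadm, Ppara and Ehhadh have all 3 DSS arrays below both control colons, whereas Hadha stays within 11.07 to 11.35.

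Hadha, the alpha subunit of the trifunctional protein that hydrates and dehydrogenates long-chain intermediates, had the narrowest range. It ran from 11.07 in KO control colon to 11.35 in KO ileum, and DSS minus control colon was 0.05 ± 0.11 (adjusted p = 0.858). Ileum minus control colon was 0.15 ± 0.12 (adjusted p = 0.534). Acaa2, the mitochondrial thiolase that closes the cycle, was more uneven. It stood at 10.24 in WT and 10.52 in KO ileum, 10.38 in WT and 9.93 in KO control colon, and 9.18 in WT DSS colon. KO DSS replicate 1 held 10.11 and replicate 2 held 9.38, so the pair differed by 0.73, more than 98.3% of genes on the signed scale, and replicate 1 lay between the control colons. The fitted DSS difference of -0.63 ± 0.29 did not pass (adjusted p = 0.232), though it did without KO DSS replicate 1 (-0.88, adjusted p = 0.0248).

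Cpt1a, the outer-membrane carnitine palmitoyltransferase that controls entry of long-chain fatty acids, also varied little. Its values were 11.30 in WT and 11.19 in KO ileum, 11.49 in WT and 11.07 in KO control colon, 10.88 in WT DSS colon, and 11.11 and 11.05 in the KO DSS arrays. The KO DSS arrays lay on either side of KO control colon, while WT DSS lay 0.62 below WT control colon. The fitted DSS difference was -0.26 ± 0.15 (adjusted p = 0.371), and ileum minus control colon was -0.04 ± 0.17 (adjusted p = 0.926).

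Ppara, the receptor gene, was higher in ileum than in colon. It stood at 8.59 in WT and 9.04 in KO ileum, 7.43 in WT and 7.30 in KO control colon, 6.79 in WT DSS colon, and 7.10 and 6.90 in KO DSS colon. Ileum, control colon and DSS colon did not overlap. Ileum exceeded control colon by 1.45 ± 0.16 log2 units (SE, 2 against 2 arrays, adjusted p = 0.00322), and this passed under every alternative run, with 1.23 to 1.67 when single arrays were left out. Over all genes 9.16% passed in this comparison, 5.94% higher and 3.22% lower in ileum, against 3 of the 8 genes, all higher. The DSS difference was -0.46 ± 0.15 (adjusted p = 0.105). Under quantile normalization it passed (-0.49, adjusted p = 0.0465).

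Ehhadh, the peroxisomal bifunctional enzyme that pairs the hydratase with the second dehydrogenase and a widely used PPAR-alpha target, showed the same order of tissues. Its values were 9.09 in WT and 9.57 in KO ileum, 8.54 in WT and 8.27 in KO control colon, 7.67 in WT DSS colon, and 7.89 and 7.94 in KO DSS colon. Again the 3 conditions did not overlap. Ileum exceeded control colon by 0.92 ± 0.18 (adjusted p = 0.0278). This did not pass without KO ileum (0.69, adjusted p = 0.215), KO control colon (0.61, adjusted p = 0.138) or KO DSS replicate 2 (0.92, adjusted p = 0.0541). The DSS difference of -0.60 ± 0.17 did not pass (adjusted p = 0.0743), but did with each array centred on its median (-0.64, adjusted p = 0.0427) and under quantile normalization (-0.71, adjusted p = 0.0245). Every DSS array lay below both control colons for 3 of the 8 genes, Acadm, Ppara and Ehhadh, as for 18% of all genes, and above both for none of the 8, against 22.1% of all genes. Both ileum arrays lay above both control colons for 4 of the 8, Ppara, Ehhadh, Hadha and Angptl4, against 25.8% of all genes. Below both lay none of the 8, against 28.2%.

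**Figure D2:**
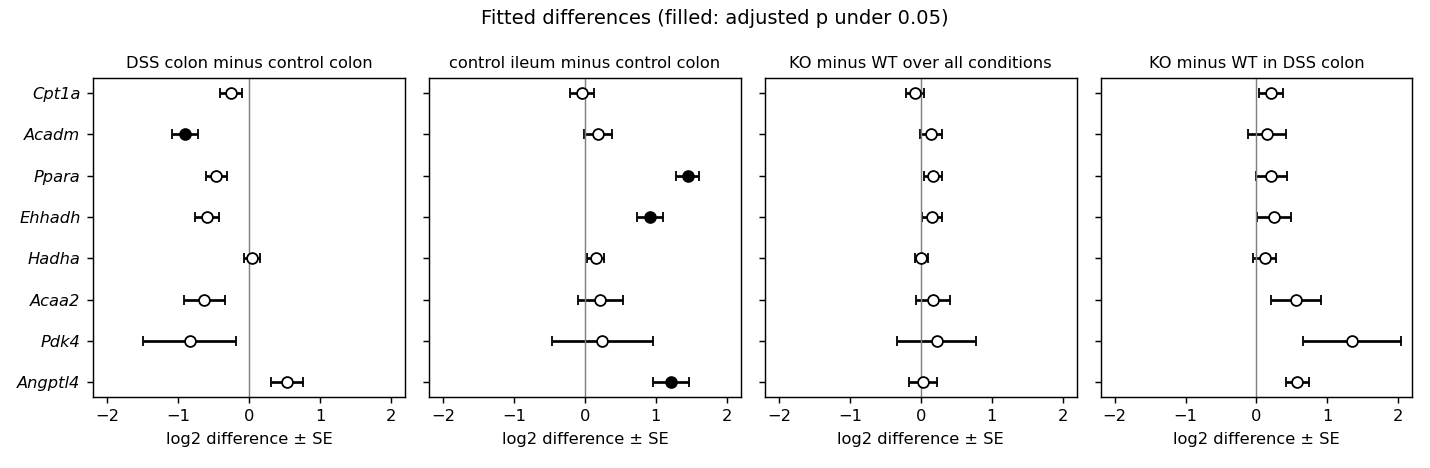
Fitted log2 differences with standard errors (x axis) of the 8 genes (y axis) in 4 comparisons; filled points had an adjusted p under 0.05. Acadm is filled for DSS, Ppara, Ehhadh and Angptl4 for ileum against colon, and no gene in either comparison of genotypes.

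Angptl4, a secreted inhibitor of lipoprotein lipase, was higher in ileum than in colon. In DSS colon both KO arrays lay above the 1 WT array, as for all 8 genes and for 34.2% of all genes. Angptl4 stood at 8.21 in WT and 7.90 in KO ileum, and at 7.01 in WT and 6.67 in KO control colon. DSS colon held 7.00 in WT, but 7.65 and 7.49 in KO. Both KO DSS arrays exceeded KO control colon, by 0.98 and 0.82, while WT DSS differed from WT control colon by -0.02. The fitted DSS difference over both genotypes was 0.53 ± 0.23 (adjusted p = 0.207), and 0.89 without WT DSS colon (adjusted p = 0.0417). The interaction, KO minus WT in DSS colon less KO minus WT over control ileum and control colon together, was 0.90 ± 0.21. Its unadjusted p was 0.00491 and its adjusted p 0.9999 in limma, so it did not pass. No gene of the 19938 passed that test (0%), and 639 had an unadjusted p under 0.05. Ileum exceeded control colon by 1.22 ± 0.25 (adjusted p = 0.0312), and this did not pass without either ileum array (WT 0.97, adjusted p = 0.183; KO 1.46, adjusted p = 0.0874), either control colon (WT 1.48, adjusted p = 0.0825; KO 0.95, adjusted p = 0.254) or KO DSS replicate 2 (1.22, adjusted p = 0.0542).

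Pdk4, the kinase that shuts off pyruvate dehydrogenase and so spares glucose, had the widest range of the set. It stood at 7.52 in WT and 8.05 in KO ileum, and at 8.33 in WT but 6.75 in KO control colon. DSS colon held 5.84 in WT, close to the lower quartile of all genes on that array (5.73), and 7.78 and 6.60 in KO. Ileum, control colon and DSS colon overlapped. WT DSS colon lay 2.49 below WT control colon, a 5.63-fold difference in intensity, whereas KO DSS replicate 1 lay 1.03 above KO control colon and replicate 2 lay 0.15 below it. The DSS difference was -0.84 ± 0.66 (adjusted p = 0.498) and turned to 0.32 without WT control colon. KO exceeded WT in DSS colon by 1.35 ± 0.69 (adjusted p = 1), and by 1.94 without KO DSS replicate 2. The latter sets 1 KO array against 1 WT array. Its spread could come only from the ileum and control colon arrays, so no p-value is given.

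Markers of fat and muscle also differed between arrays of the same condition, not always in the direction of Pdk4 and Acaa2. Between the control colons, KO minus WT was -1.58 for Pdk4, and the median over 10 adipocyte markers was -1.55, with 9 of the 10 lower and the defining markers Adipoq at 7.92 and 6.20, Plin1 at 7.94 and 6.57 and Fabp4 at 9.25 and 7.35 in WT and KO. The median over 12 smooth muscle markers was -0.01 there. Between the ileum arrays, KO minus WT was 0.53 for Pdk4 and 0.28 for Acaa2, while the adipocyte median was -0.22 with 3 of 10 higher, and the smooth muscle median was -0.20 with none of 12 higher. Between the KO DSS arrays, replicate 1 exceeded replicate 2 by 1.18 for Pdk4. All 10 adipocyte and all 12 smooth muscle markers were also higher in replicate 1, with medians of 0.77 and 1.02. In WT colon, DSS minus control had a median of -1.68 for adipocyte and -2.38 for smooth muscle markers, each list with no member higher. The mean log2 intensity of the adipocyte list ranged over 8.99 to 9.25 in ileum, 7.06 to 8.44 in control colon and 6.75 to 7.69 in DSS colon. That of the epithelial list ranged over 11.98 to 12.14, 11.63 to 11.76 and 11.91 to 11.97. For 10 endothelium and fibroblast markers, the KO minus WT median was 0.49 in ileum (10 higher) and 0.06 in control colon (5 higher). Their median was 0.36 for KO DSS replicate 1 minus replicate 2 (10 higher), and -0.335 for DSS minus control in WT colon (none higher). No defining marker was at 0, and the part of fat, muscle, endothelium or fibroblasts in these results was not tested.

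**Figure D3:**
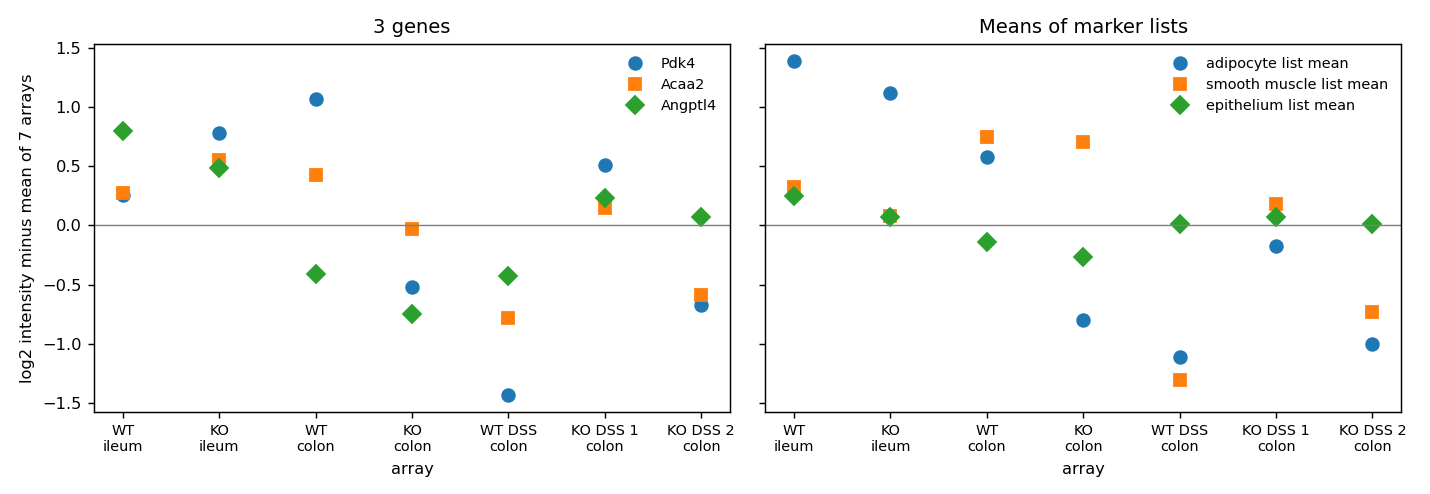
Log2 intensity minus its mean over the 7 arrays (y axis) for Pdk4, Acaa2 and Angptl4 (left) and for the means of the adipocyte, smooth muscle and epithelial marker lists (right), 1 point per array (x axis). Pdk4 and the adipocyte list both fall between WT and KO control colon, and WT DSS colon is the lowest array for Pdk4, Acaa2, the adipocyte list and the smooth muscle list.

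None of the 8 genes passed the threshold between the genotypes. Over ileum, control colon and DSS colon together (4 KO against 3 WT arrays) the differences ran from -0.08 ± 0.13 for Cpt1a to 0.22 ± 0.55 for Pdk4, each with an adjusted p of 0.989 or more. Atg4b was the 1 gene of 19938 that passed in limma (0.00502%), and 720 genes had an unadjusted p under 0.05. The sign differed between conditions. In control colon all 8 genes were lower in KO, as were 58.6% of all genes, with differences from -0.13 for Ppara to -1.58 for Pdk4. In ileum 6 of 8 were higher in KO, against 46.6% of all genes, led by Acadm at 0.58, Pdk4 at 0.53, Ehhadh at 0.48 and Ppara at 0.45, while Angptl4 (-0.31) and Cpt1a (-0.11) were lower. These are comparisons of 1 array with 1 array and carry no test.

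In DSS colon both KO arrays exceeded the WT array for all 8 genes, as for 34.2% of all genes. The fitted differences ran from 0.11 ± 0.16 for Hadha to 1.35 ± 0.69 for Pdk4, with Acaa2 at 0.56 ± 0.35 and Angptl4 at 0.57 ± 0.16 (unadjusted p = 0.0117 in limma). None passed, with an adjusted p of 1 for each. No gene of the whole table passed this comparison (0%), and 776 had an unadjusted p under 0.05. All 8 genes share the single WT DSS array, which also had the lowest smooth muscle mean of all arrays. All 12 smooth muscle and all 10 adipocyte markers had positive KO minus WT values there, with medians of 1.19 and 0.51, as had all 10 endothelium and fibroblast markers (median 0.56). Against WT DSS colon, the adipocyte median was 0.98 for KO replicate 1 (10 of 10 higher) and 0.04 for replicate 2 (6 of 10), and the smooth muscle median was 1.77 and 0.60. Their part was not tested. The interaction, KO minus WT in DSS colon less KO minus WT over control ileum and control colon together, was positive for all 8. Its median was 0.32 against 0.03 over all genes, of which 55.8% were positive. Acadm and Ppara turned negative under quantile normalization and with median centring. With 1 control colon array left out, the ileum pair alone gives the control side. Acadm, Ppara and Ehhadh then stood at -0.43, -0.24 and -0.23, values that set DSS colon against ileum. The medians of the adipocyte and smooth muscle lists in this contrast were 1.44 and 1.34, with every marker positive, and their part was not tested.

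The set was also read against the other genes of the pathway, grouped by role. In the comparison of ileum with colon, uptake and peroxisomal genes accompanied Ppara and Ehhadh. Over all genes 5.94% passed as higher and 3.22% as lower in ileum, the shares to set beside the count of each list. Of 10 other genes of fatty acid activation and the carnitine shuttle, 5 were higher in ileum and none lower, with a list median of 0.63 against -0.02 over all genes. The fatty acid transport proteins Slc27a2 and Slc27a4 were higher by 2.76 ± 0.20 and 2.37 ± 0.16, the acyl-CoA synthetase Acsl5 by 1.42 ± 0.16 and the carnitine transporter Slc22a5 by 1.31 ± 0.16. Of 14 peroxisomal genes, 6 were higher and none lower, with a median of 0.64. Among them the transporter of fatty acyl-CoA Abcd2 was higher by 1.76 ± 0.22, the branched-chain oxidase Acox2 by 1.30 ± 0.15, the carnitine octanoyltransferase Crot by 0.99 ± 0.14 and the multifunctional enzyme Hsd17b4 by 0.96 ± 0.19. Acox2 in WT control colon and Abcd2 in KO control colon were dimmer than the lower quartile of genes on their arrays, where a difference may be understated.

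Of 16 other genes of mitochondrial beta-oxidation none passed between ileum and colon, and the median was 0.11. The widest values were those of the enoyl-CoA isomerases Eci1 (0.46 ± 0.12, adjusted p = 0.0742) and Eci2 (0.46 ± 0.20), neither past the threshold. Among 8 measured genes of ketone body metabolism, 2 were lower in ileum and none higher. They were Slc16a1, the monocarboxylate carrier for lactate, butyrate and ketone bodies (-1.64 ± 0.14, adjusted p = 0.00108), and Hmgcll1 (-0.61 ± 0.13), which was dimmer than the lower quartile of genes on both ileum arrays and on KO control colon, so that its difference may be understated. In the citric acid cycle, listed as a reference for mitochondrial enzymes, 3 of 15 genes were higher in ileum, Sucla2 (0.82 ± 0.16), Dlst (0.55 ± 0.11) and Ogdh (0.53 ± 0.11), with a median of -0.05.

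Of 29 other regulators and targets of PPAR receptors, 7 were higher and 3 lower in ileum, with a median of 0.13. Over all genes 5.94% were higher and 3.22% lower. The pantetheinase Vnn1 was higher by 5.73 ± 0.26, the intestinal fatty acid binding protein Fabp2 by 5.12 ± 0.86, the glycerol phosphate dehydrogenase Gpd1 by 2.72 ± 0.33 and the regulator Creb3l3 by 2.41 ± 0.30. Vnn1 held 5.50 in KO control colon, under the lower quartile of that array (5.87), so its difference may be understated. The 3 lower genes, named after their values were seen, were the receptor Pparg (-1.01 ± 0.18), the thioredoxin inhibitor Txnip (-0.74 ± 0.14) and the coactivator Ppargc1b (-0.53 ± 0.11). In the pyruvate dehydrogenase group 1 of 11 was higher, the kinase Pdk3 (0.51 ± 0.12), and 1 lower, the subunit gene Dlat (-0.76 ± 0.14). Over all of these lists 28 genes passed, and 9 to 33 did when single arrays were left out, the fewest without KO control colon. Without either ileum array the count was 15 (WT) or 10 (KO), and 18 without WT control colon. Ileum also had 9 of 10 ileal enterocyte markers higher, 4 of 10 adipocyte markers (median 1.67) and 5 of 8 T cell markers (median 1.48). Their part in the tissue differences was not tested.

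**Figure D4:**
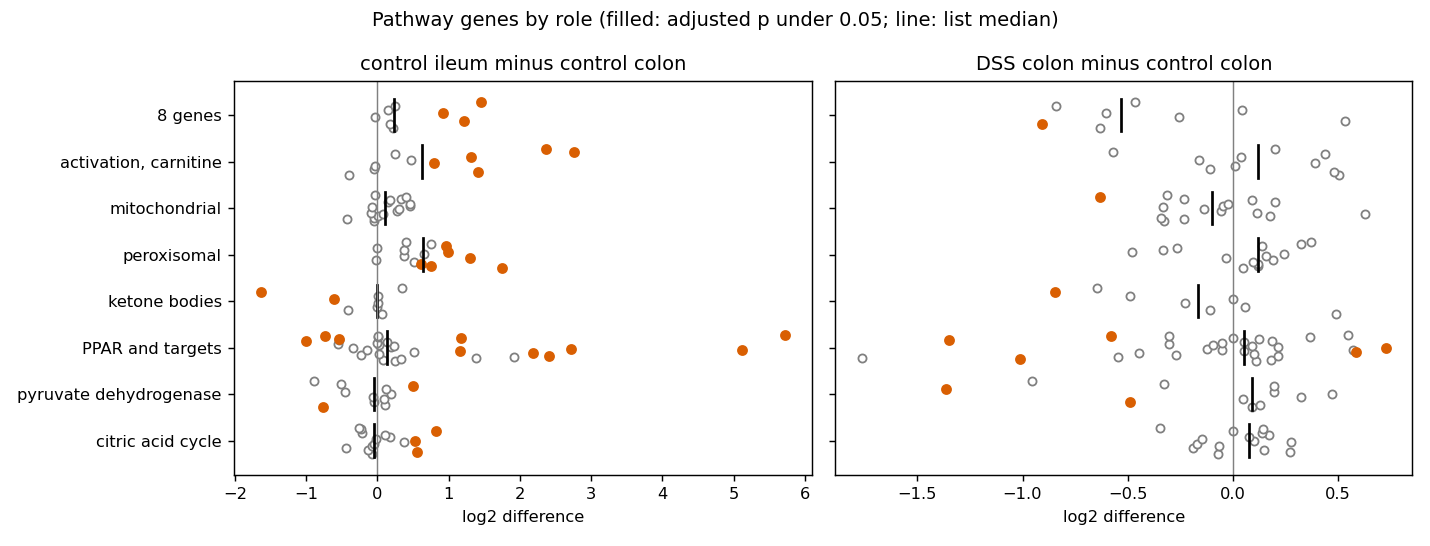
Log2 differences (x axis) of the 8 genes and of the other pathway genes by role (y axis), for ileum against control colon (left) and DSS colon against control colon (right); each point is 1 gene, filled where the adjusted p was under 0.05, and black lines are list medians. In ileum the filled points of the activation and peroxisomal groups all lie above 0, while in DSS colon these groups have no filled point.

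With DSS, 9 of the other pathway genes passed, from lists of 10, 16, 14, 8, 29, 11 and 15 measured genes, against 10.6% of all genes. The number called is not read as a result about the pathway. Of the 16 mitochondrial beta-oxidation genes 1 passed, Hadh, the short-chain hydroxyacyl-CoA dehydrogenase, which fell by 0.63 ± 0.13 log2 units (adjusted p = 0.0301). It stood at 12.40 and 12.42 in control colon and 11.63 to 12.04 in DSS colon. Acadl, the long-chain dehydrogenase, had 0.63 ± 0.24 and did not pass, and the list median was -0.10 against -0.01 over all genes. Of 8 ketone body genes 1 passed, Slc16a1, which fell by 0.84 ± 0.13 (adjusted p = 0.0133) from 11.997 and 11.70 in control colon to 10.86 to 11.14 in DSS colon. The carrier Slc16a7 had -0.65 ± 0.36 and did not pass. None of the 10 activation and shuttle genes passed (Slc27a2 -0.57 ± 0.18, Acsl4 0.50 ± 0.18), nor did any of 14 peroxisomal genes (Crot -0.48 ± 0.13, Scp2 0.37 ± 0.13) or any of 15 citric acid cycle genes (Suclg2 -0.35 ± 0.11, Mdh2 0.28 ± 0.10).

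Genes of pyruvate dehydrogenase control and PPAR regulators were also among the calls. Pdk2, another kinase of the Pdk4 family, fell by 1.37 ± 0.21 (adjusted p = 0.0136), from 10.67 in WT and 10.15 in KO control colon to 8.78 in WT DSS colon and 9.27 and 9.08 in KO DSS colon. Unlike Pdk4, its DSS arrays all lay below both control colons. The mitochondrial pyruvate carrier subunit Mpc1 fell by 0.49 ± 0.11, and the other 9 of 11 genes in that group did not pass. Among the 29 PPAR regulators and targets, 2 rose and 3 fell. Ppargc1a, the coactivator that drives mitochondrial gene expression, fell by 1.35 ± 0.24 (adjusted p = 0.0209), from 10.54 and 10.67 to 9.45 in WT DSS colon and 8.80 and 9.53 in KO DSS colon. The acyl-CoA thioesterase Acot2 fell by 1.01 ± 0.20. The lipid droplet protein gene Hilpda rose by 0.73 ± 0.10 (adjusted p = 0.00943), and the nuclear receptor Esrra by 0.58 ± 0.13. The third that fell, Txnip (-0.58 ± 0.13), was named after its value was seen. The 9 calls among these lists became 0 without WT control colon or without KO control colon, 1 without WT DSS colon, 4 without KO DSS replicate 2 and 17 without KO DSS replicate 1. Smooth muscle markers were lower with DSS (median -1.55, 3 of 12 past the threshold), and macrophage and neutrophil markers were higher (median 1.37, 7 of 11). Of 10 colonocyte markers 3 were lower and 1 higher (median -0.35), and of 10 adipocyte markers 1 was lower (median -0.48). Their part in these differences was not tested.

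No other pathway gene passed between the genotypes, over all conditions or in DSS colon. Without KO DSS replicate 2, 2 of these genes passed in DSS colon.

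Among themselves the 8 genes formed no single pattern over the 7 arrays. Pearson's r of log2 intensity was 0.98 between Ppara and Ehhadh, 0.94 between Pdk4 and Acaa2, and 0.90 between Acadm and Ehhadh, but 0.19 between Angptl4 and Acadm and 0.24 between Angptl4 and Cpt1a. All pairs share the same 7 arrays and their tissue and treatment contrasts, so these values describe and do not test. Among 9741 named genes above the median level, the profiles most like Ppara were those of Mlxipl, a glucose-responsive transcription factor (r = 0.997), Nos1ap (r = 0.997) and Cmbl (r = 0.995). Those most like Ehhadh were Cyp4f16 (r = 0.995), Gramd1b and Ppp6r2. For Acadm they were Sap18 (r = 0.990), Ankmy2 and Tfdp2, for Acaa2 Mkln1 (r = 0.994), Cdadc1 and Cped1, and for Pdk4 Zmynd11 (r = 0.973), Habp4 and Pgap4. For Angptl4 they were Pgap6 (r = 0.981), Pld1 and Specc1l, for Cpt1a Zfp579 (r = 0.986), Erbb2 and Kcnn4, and for Hadha Pdlim5 (r = 0.971), Mms19 and Egln2.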

How the data were processed

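Per the labels' protocols, an RNeasy kit yielded the total RNA, and Affymetrix's Sense Target Labeling kit made the biotin target. The authors deposited 1 linear intensity per probe set and array, from 10.4 to 22236.4; their summarisation and normalization are not given in the sources used here. Array medians were 121.4 to 126.45, so the values were taken as normalized and log2 was computed. A difference common to every gene could not be seen if the arrays had been equalised. Of 35512 probe sets, 21789 had 1 symbol in the platform annotation, 1621 several and 12102 none here; the probe set with the highest mean was kept per gene, which left 19938 genes. Matching through the RefSeq table changed 0 symbols.

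Differences were fitted with limma 3.58.1 in R 4.3.3 (lmFit, eBayes; Benjamini-Hochberg over all genes, threshold 0.05). An additive model of condition and genotype (3 residual degrees of freedom) gave the DSS, tissue and overall genotype differences. A model with 5 coefficients (2 residual degrees of freedom) gave KO against WT in DSS colon and the interaction. The interaction is KO minus WT in DSS colon less KO minus WT over control ileum and control colon together, so ileum enters it. The script of the fits was tested on simulated data. Values with ± are log2 differences and standard errors. The number of arrays limits the precision.

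The genes and lists were chosen with earlier results of these data known. Of each pathway list the text names up to 4 passing genes with the largest difference, or the 2 widest where fewer than 2 passed. Genes most alike are the 3 with the highest r. Alternatives were quantile normalization, median centring, a filter on dim genes, the mean of a gene's probe sets, eBayes with trend and robust settings, a 6-group model, a fit of the colon alone, and omission of each array in turn. Figures used matplotlib 3.10.9.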

Additional observations from a re-analysis of the deposited data

Results flagged for a closer look

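For 7 of the 8 genes a sign changed among the control arrays. It was that of ileum minus control colon between the genotypes or that of KO minus WT between the tissues. How many of all genes met this rule was not counted, so the 7 are not read as a result about the set. Each group here is 1 array, and the difference between the genotypes was not tested. For Pdk4 ileum minus control colon was -0.81 in WT and 1.30 in KO, a gap of 2.11 log2 units. For Acadm the values were -0.26 and 0.62, a gap of 0.88, for Acaa2 -0.15 and 0.58, a gap of 0.73, and for Cpt1a -0.20 and 0.12, a gap of 0.32. For Ehhadh, Ppara and Hadha ileum was higher in both genotypes, but KO minus WT was positive in ileum and negative in control colon, with gaps of 0.75, 0.58 and 0.27. The adipocyte marker list had a median ileum minus colon value of 1.01 in WT and 2.32 in KO, and its part was not tested.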

How the results depend on the processing

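No paired analysis was possible because the labels number replicates in only 1 group, KO DSS colon. With 3 or 2 residual degrees of freedom single arrays moved many calls. The count of the 8 genes called for DSS was 1; it was 3 under quantile normalization, 2 with median centring, 0 in the 6-group model and 0 to 2 without single arrays. Without WT DSS colon the 1 gene called was Angptl4, not Acadm. The 3 calls for tissue were 1 to 3 without single arrays. The count for KO against WT in DSS colon was 0 to 1 without single arrays; that for the overall genotype difference and the interaction stayed at 0. Over all genes, 2120 calls for DSS became 297 in the 6-group model and 183 to 3549 without single arrays, and 1826 for tissue became 764 and 660 to 2418. KO against WT in DSS colon gave 10 calls with a variance trend.

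The sign of some differences changed, and the cause was not tested. For DSS, Hadha was -0.0009 under quantile normalization. Without single arrays Hadha ran from -0.12 to 0.18 and Pdk4 from -2.26 to 0.32. For tissue the ranges were -0.14 to 0.50 for Acadm, -0.29 to 0.21 for Cpt1a, -0.23 to 0.66 for Acaa2 and -1.04 to 1.54 for Pdk4. For the overall genotype difference Angptl4 was -0.022 under quantile normalization and -0.025 in the 6-group model, and Hadha -0.0021 with median centring and -0.0028 in the 6-group model. Without single arrays the ranges were -0.048 to 0.33 for Acadm, -0.061 to 0.097 for Hadha, -0.27 to 0.071 for Cpt1a, -0.53 to 1.00 for Pdk4, -0.33 to 0.20 for Angptl4 and -0.086 to 0.44 for Acaa2. For the interaction Acadm was -0.0004 and -0.080, and Ppara -0.045 and -0.041, under quantile normalization and median centring. Without single arrays the ranges were -0.43 to 0.45 for Acadm, -0.24 to 0.34 for Ppara and -0.23 to 0.52 for Ehhadh. Leaving out a control array of either tissue left the other tissue alone on the control side of the interaction. Without WT DSS colon, KO against WT in DSS colon and the interaction could not be fitted.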
